A study of Mus musculus with 60 samples.

Results

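Metallothioneins are small, cysteine-rich proteins that bind zinc and copper, and in mice the liver forms, metallothionein 1 (Mt1) and metallothionein 2 (Mt2), lie next to each other in the genome. Free zinc is sensed by MTF1, a zinc finger transcription factor encoded by Mtf1, which binds metal response elements in the promoters of Mt1, Mt2 and the zinc exporter gene Slc30a1 (ZnT1). Zinc enters cells through transporters of the SLC39 family, of which Slc39a14 (ZIP14) is the member known to rise in the liver in acute inflammation, and it leaves the cytosol through the SLC30 family. Metallothionein transcription is also known to respond to glucocorticoids, interleukin-6 and oxidants, and in the liver both hepatocytes and macrophages express these genes.

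These 5 genes (Mt1, Mt2, Mtf1, Slc30a1 and Slc39a14) were taken by symbol from a table of 24411 genes counted in Kupffer cells, which are macrophages resident in the liver sinusoids. They were chosen by their levels in earlier results of the comparison of wild-type CCl4 with wild-type oil mice, so their differences in that comparison are given as a description, with no test. The study compared 5 Trem1-deficient mice given carbon tetrachloride (CCl4), 5 wild-type mice given CCl4 and 5 wild-type mice given oil. Trem1 encodes a receptor on myeloid cells that amplifies inflammatory signalling, and CCl4 is a solvent that injures hepatocytes around the central vein. All mice were C57BL/6J, labelled as male and 8 weeks old. A single dose, corn oil alone or CCl4 in corn oil at 2 µl/g, was given 12 h before the livers were taken. Kupffer cells were prepared by collagenase digestion, a slow spin to remove hepatocytes, a density gradient and magnetic beads. No Trem1-deficient mice given oil are among the groups, so a difference between the genotypes after CCl4 cannot be set against one without CCl4. The labels do not say which part of Trem1 is missing or in which cells.

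Each mouse gave 1 library of 3′ tags, in which each transcript is read near its end, so counts were not divided by gene length. Gene counts per library were 1250547 to 2593004 in Trem1-deficient CCl4 mice, 812320 to 1912946 in wild-type CCl4 mice and 892498 to 1922569 in wild-type oil mice. Trem1 had 2 to 25 counts in Trem1-deficient CCl4 mice, 167 to 578 in wild-type CCl4 mice and 35 to 100 in wild-type oil mice. Library index numbers in the labels fall into 2 series. One of 7 libraries holds all wild-type oil mice with Trem1-deficient mice 1 and 2, and one of 8 holds all wild-type CCl4 mice with Trem1-deficient mice 3 to 5. The 7 libraries had 72 to 1552 Xist counts and 0 to 7 counts of Y-linked genes, against the labelled sex, whereas the 8 had 1 to 31 Xist counts and 134 to 425 Y-linked counts. In wild-type mice, CCl4 therefore cannot be told apart from the index series and the sex-linked transcripts. Values below are CPM, the counts divided by library size after scaling by the trimmed mean of M-values (TMM), unless they are named as counts.

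Kupffer cell markers themselves differed between the groups. The summed level of 16 markers was 37155 to 57073 CPM in Trem1-deficient CCl4 mice, 5654 to 22914 CPM in wild-type CCl4 mice and 36998 to 71949 CPM in wild-type oil mice. All 16 were detected in each group. Hepatocyte markers summed to 1476 to 16461 CPM in Trem1-deficient CCl4 mice, 13774 to 39650 CPM in wild-type CCl4 mice and 2300 to 13794 CPM in wild-type oil mice, with 19 of 20 detected and Ass1 at 0. Neutrophil markers (11 measured, all detected) summed to 393 to 3249 CPM in Trem1-deficient CCl4 mice, 1317 to 12222 CPM in wild-type CCl4 mice and 225 to 1753 CPM in wild-type oil mice. Monocyte markers (13, all detected) summed to 785 to 1667 CPM in Trem1-deficient CCl4 mice, 2842 to 5582 CPM in wild-type CCl4 mice and 615 to 1477 CPM in wild-type oil mice. In such bulk samples, fewer cells of a type and less RNA per cell cannot be told apart.

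Promoters were read because MTF1 binds metal response elements there, and the 3 promoters with a match are shown. RefSeq windows of 300 bases (250 before and 50 after the annotated start, build GRCm38.p6) matched Mt1, Mt2, Mtf1 and Slc30a1 by symbol, 4 of the 5 genes. The core of the element was searched on both strands as TGCACNC or TGCGCNC. Capitals mark each match in the windows below, which run 5′ to 3′ on the plus strand at chr8:94178839-94179138 for Mt1, chr8:94172368-94172667 for Mt2 and chr1:191906531-191906830 for Slc30a1.
Mt1: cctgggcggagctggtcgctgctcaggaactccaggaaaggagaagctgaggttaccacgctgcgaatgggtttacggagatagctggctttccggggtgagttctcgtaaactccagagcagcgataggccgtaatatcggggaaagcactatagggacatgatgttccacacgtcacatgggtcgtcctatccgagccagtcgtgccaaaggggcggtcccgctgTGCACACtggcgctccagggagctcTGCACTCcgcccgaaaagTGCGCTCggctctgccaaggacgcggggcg
Mt2: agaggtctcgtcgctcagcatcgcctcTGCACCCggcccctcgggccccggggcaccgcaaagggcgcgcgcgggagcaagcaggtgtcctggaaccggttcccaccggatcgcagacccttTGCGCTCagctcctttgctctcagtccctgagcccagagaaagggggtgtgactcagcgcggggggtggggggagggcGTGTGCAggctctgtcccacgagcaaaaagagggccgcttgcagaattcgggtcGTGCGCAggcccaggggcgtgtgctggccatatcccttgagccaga
Slc30a1: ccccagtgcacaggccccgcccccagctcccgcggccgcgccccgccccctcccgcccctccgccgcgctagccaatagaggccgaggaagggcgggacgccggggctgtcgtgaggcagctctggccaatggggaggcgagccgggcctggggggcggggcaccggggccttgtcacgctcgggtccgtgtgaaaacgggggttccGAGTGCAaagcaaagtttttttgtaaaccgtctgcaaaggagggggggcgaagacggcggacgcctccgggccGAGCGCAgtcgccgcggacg

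The Mt2 window held 4 matches to the core, the Mt1 window 3, the Slc30a1 window 2 and the Mtf1 window 0. Among all 32851 windows of the same length, 25.7% held at least 1 match, 7.11% at least 2, 1.97% at least 3 and 0.517% at least 4. Mt2 and Slc30a1 each also held 1 match to the core of the antioxidant response element, TGACNNNGC on either strand, which 12.4% of windows held, and it overlapped no metal response element match. No window of the 4 genes held the STAT motif TTCNNNGAA, found in 8.3% of windows. GENCODE annotates later starts of Mt1 at 94179211 and 94179241 of Mt2 at 94172860 and of Slc30a1 at 191907256, past the ends of these windows, so bases next to those starts were not searched. A match in letters is no evidence of binding.

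Mt1 (chr8:94179082-94180327 in mm10, plus strand) and Mt2 (chr8:94172664-94173568, plus strand) gave the most tags of the 5 genes. Mt1 starts 5514 bases past the end of Mt2. Mt1 was at 256, 620, 653, 315 and 716 CPM in Trem1-deficient CCl4 mice 1 to 5. It was at 391.7, 2205, 2222, 1390 and 2124 CPM in wild-type CCl4 mice 1 to 5. In wild-type oil mice 1 to 5 it was at 292, 407, 334, 263 and 263 CPM. Thus 4 wild-type CCl4 mice stood above every Trem1-deficient mouse, wild-type CCl4 mouse 1 lay within the range of both other groups, and the Trem1-deficient and oil mice overlapped. Group means were 512 ± 211 CPM in Trem1-deficient CCl4 mice, 1666 ± 792 CPM in wild-type CCl4 mice and 312 ± 60.8 CPM in wild-type oil mice (SD, n = 5 each).

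Mt2 was at 860, 2895, 1638, 865 and 2119 CPM in Trem1-deficient CCl4 mice 1 to 5. Wild-type CCl4 mice 1 to 5 had 1291, 10197, 9255, 6116 and 5993 CPM. Wild-type oil mice 1 to 5 had 231, 440, 201, 280 and 247 CPM. Every mouse given CCl4, of either genotype, stood above every oil mouse, and 4 of 5 wild-type CCl4 mice stood above every Trem1-deficient mouse. Means were 1675 ± 867 CPM in Trem1-deficient CCl4 mice, 6570 ± 3492 CPM in wild-type CCl4 mice and 280 ± 94.1 CPM in wild-type oil mice (SD, n = 5 each). None of the 251 words of 50 bases in the last 300 bases of the longest Mt1 or Mt2 transcript occurs in a transcript of another gene in GENCODE M21. The antisense gene Gm45774 overlaps Mt2, and no source used here says whether counting took strand into account, so their reads cannot be told apart.

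**Figure D1:**
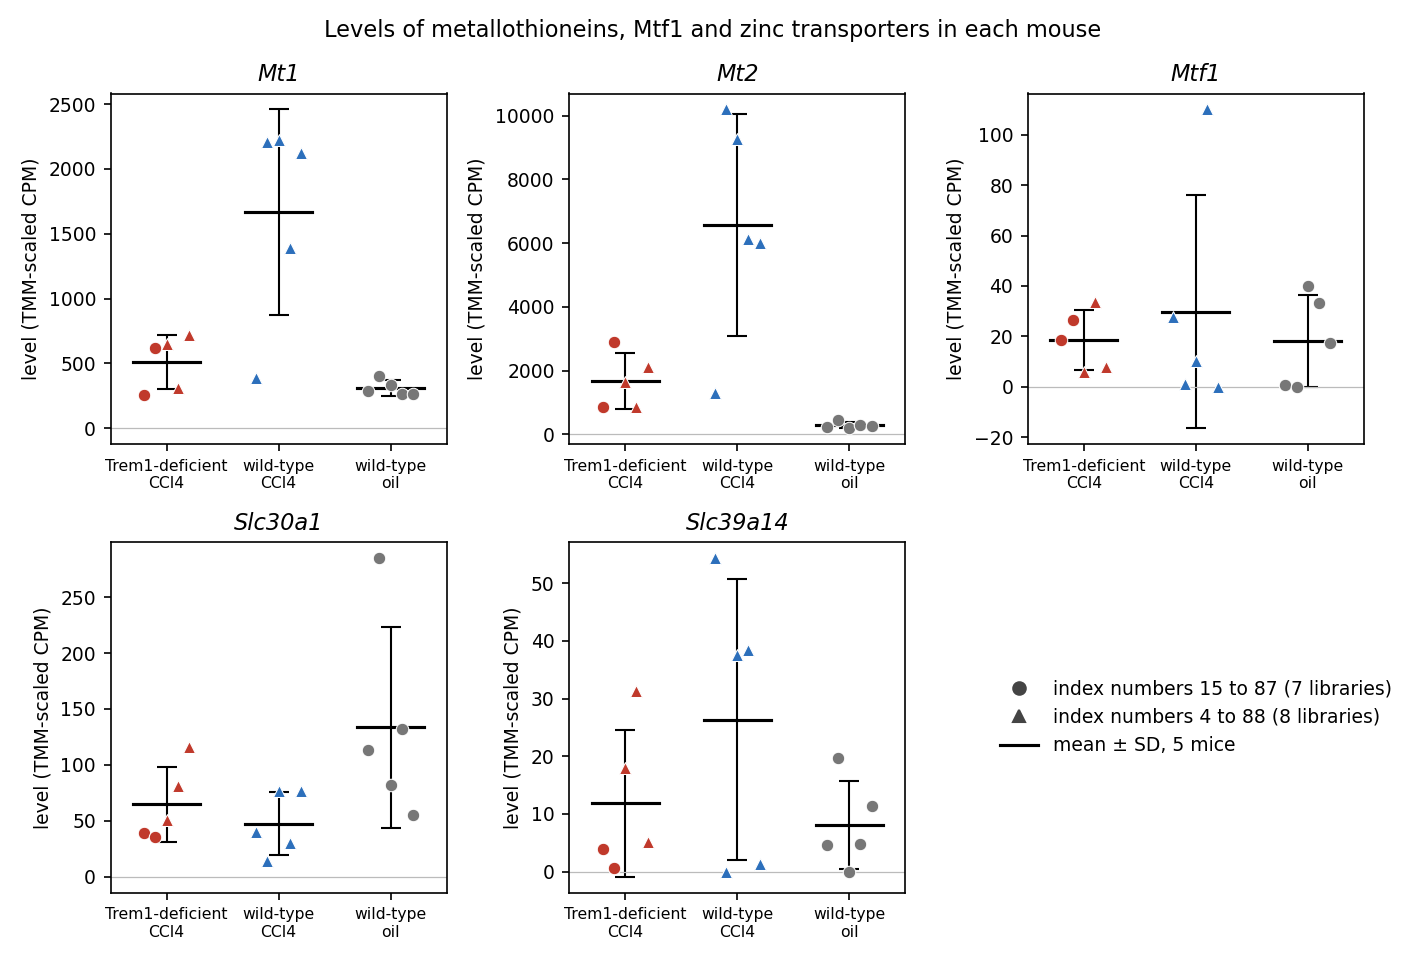
Level of Mt1, Mt2, Mtf1, Slc30a1 and Slc39a14 (TMM-scaled CPM, linear axes) in each of 15 mice, with the mean and SD of 5 mice per group in black; circles and triangles are the 2 series of index numbers, and an SD larger than its mean runs below 0. For Mt2, all 5 Trem1-deficient CCl4 mice (860 to 2895 CPM) and all 5 wild-type CCl4 mice (1291 to 10197 CPM) lie above all 5 wild-type oil mice (201 to 440 CPM).

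Mtf1 (chr4:124802104-124849800, plus strand), the sensor of the pathway, was low and variable. It had 56, 80, 14, 42 and 14 counts in Trem1-deficient CCl4 mice 1 to 5, 42, 1, 11, 195 and 0 counts in wild-type CCl4 mice 1 to 5, and 1, 0, 57, 35 and 37 counts in wild-type oil mice 1 to 5. Both wild-type groups held libraries with 0 or 1 counts, and all 3 groups overlapped. Means were 18.6 ± 11.9 CPM in Trem1-deficient CCl4 mice, 29.8 ± 46.2 CPM in wild-type CCl4 mice and 18.3 ± 18.3 CPM in wild-type oil mice (SD, n = 5 each).

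Slc30a1 (chr1:191906767-191913247, plus strand), the plasma membrane exporter that carries zinc out of the cell, was lower on average in both groups given CCl4 than in oil mice. It was at 39.5, 35.7, 51.0, 81.3 and 116 CPM in Trem1-deficient CCl4 mice 1 to 5. Wild-type CCl4 mice 1 to 5 had 40.0, 13.9, 77.1, 30.5 and 76.3 CPM, and wild-type oil mice 1 to 5 had 113, 285, 82.4, 132 and 55.1 CPM. All 10 mice given CCl4 lay below the oil mean of 134 ± 89.6 CPM, yet both CCl4 groups overlapped the oil group. Every oil mouse but mouse 2, at 285 CPM, also lay below that mean. On the opposite strand 1700034H15Rik overlaps the gene, with 41 counts over 15 libraries against 1642 for Slc30a1. Means after CCl4 were 64.7 ± 33.8 CPM in Trem1-deficient mice and 47.6 ± 28.2 CPM in wild-type mice (SD, n = 5 each).

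Slc39a14 (chr14:70303469-70351425, minus strand), the ZIP14 importer of zinc, iron and manganese, gave the fewest tags. It had 12, 2, 42, 39 and 9 counts in Trem1-deficient CCl4 mice 1 to 5, 83, 0, 40, 68 and 1 counts in wild-type CCl4 mice 1 to 5, and 5, 16, 0, 5 and 24 counts in wild-type oil mice 1 to 5. Wild-type CCl4 mice split into 3 at 37.6 to 54.4 CPM and 2 at 0 and 1.36 CPM. Those 2 libraries, from mice 2 and 5, had 1055654 and 812320 gene counts, and the limit of 3 counts that a count of 0 allows came to 2.97 CPM on the TMM scale in mouse 2. All 3 groups overlapped.

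In wild-type CCl4 against wild-type oil mice, 5.13% of the 9001 genes tested passed an adjusted p of 0.05 in either direction in edgeR's quasi-likelihood test, 3.04% higher and 2.09% lower. Mt2 was 23.5-fold higher in the mean, with a fitted log2 fold change of 4.55 ± 0.50 (SE), and Mt1 was 5.35-fold higher, with 2.42 ± 0.37. Slc39a14 differed by 1.71 ± 1.27, Mtf1 by 0.70 ± 1.17 and Slc30a1 by -1.49 ± 0.57 on the log2 scale. The median over all tested genes was 0.06. Levels of Mt2 did not overlap between these groups, as was so for 6.58% of all tested genes in this comparison, whereas those of the other 4 genes did. The same contrast chose the genes, so nothing is read from these shares. In the same comparison edgeR called 14 of 16 tested Kupffer cell markers, all lower. It called 5 of 19 hepatocyte, 7 of 13 monocyte and 4 of 10 neutrophil markers, all higher. Median log2 fold changes of these 4 marker lists were -2.57, 2.18, 2.63 and 3.18. The part of these marker differences in the metallothionein levels was not tested.

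Trem1-deficient CCl4 mice had lower metallothionein levels than wild-type CCl4 mice. Mt1 fell by 1.70 ± 0.36 on the log2 scale (edgeR adjusted p = 0.00762), and it was lower than the wild-type CCl4 mean in 5 of 5 Trem1-deficient mice. Mt2 fell by 1.97 ± 0.44 (edgeR adjusted p = 0.0263), also in 5 of 5 mice. Over all tested genes the median was -0.03, and 2.06% passed in either direction, 0.778% higher and 1.28% lower. Groups overlapped for both genes through wild-type CCl4 mouse 1, whereas 5.54% of all tested genes showed no overlap. The 5 wild-type CCl4 libraries also entered the contrast that chose the genes, so the difference is not independent of that choice. Of the markers in the same comparison, edgeR called 12 of 16 for Kupffer cells, all higher. It called 3 of 19 for hepatocytes, 3 of 13 for monocytes and 2 of 10 for neutrophils, all lower. Median log2 fold changes of these 4 marker lists were 2.12, -2.03, -1.72 and -2.15. Mtf1 differed by -0.69 ± 1.17 (adjusted p = 0.844), Slc30a1 by 0.45 ± 0.56 (adjusted p = 0.773) and Slc39a14 by -1.17 ± 1.25 (adjusted p = 0.723), all in edgeR.

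Within the 8 libraries of one index series, Trem1-deficient mice 3 to 5 against wild-type CCl4 mice gave -1.55 for Mt1 (edgeR adjusted p = 0.181) and -2.07 for Mt2 (edgeR adjusted p = 0.0604). With the index series as a term in the fit, Mt1 differed by -1.57 (edgeR adjusted p = 0.082) and Mt2 by -2.09 (edgeR adjusted p = 0.0881). Direction and size stayed close to those over all mice, and neither gene passed 0.05. The Mt1 call passed whichever single mouse was left out, and the Mt2 call did not pass without Trem1-deficient mouse 1, 3 or 4 or without wild-type CCl4 mouse 2, 3 or 4 (edgeR adjusted p of 0.0540 to 0.0902). Without the 3 libraries with the fewest detected genes (wild-type CCl4 mice 2 and 5 and wild-type oil mouse 2), Mt1 differed by -1.37 (edgeR adjusted p = 0.0672) and Mt2 by -1.71 (edgeR adjusted p = 0.0815).

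Against wild-type oil mice, Trem1-deficient CCl4 mice had higher Mt2 and no call for Mt1. Mt2 rose by 2.58 ± 0.46 on the log2 scale (edgeR adjusted p = 0.0161), a 5.98-fold difference in the mean with no overlap between the groups. The 5 wild-type oil libraries also entered the contrast that chose the genes, so this difference is not independent of that choice either. Mt1 differed by 0.72 ± 0.35 (edgeR adjusted p = 1.00), a 1.64-fold difference in the mean. Of all tested genes, 0.233% passed in either direction, 0.178% higher and 0.0555% lower, and 2.9% did not overlap between the groups. Their median was 0.02. Of the markers, edgeR called 0 of 16 for Kupffer cells, 0 of 19 for hepatocytes and 0 of 13 for monocytes, and 1 of 10 for neutrophils, which rose. Mtf1 differed by 0.01 ± 1.17, Slc30a1 by -1.04 ± 0.56 and Slc39a14 by 0.55 ± 1.25, each with an edgeR adjusted p of 1.00.

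Within the other index series, Trem1-deficient mice 1 and 2 against the 5 oil mice gave 2.78 for Mt2 (edgeR adjusted p = 0.00659) and 0.52 for Mt1 (edgeR adjusted p = 1.00). With the index series as a term in the fit of all mice, Mt2 differed by 2.75 from oil mice and no longer passed (edgeR adjusted p = 0.0522). Slc39a14 turned to -1.76 in both fits. Trem1-deficient mice 1 and 2, with Mt2 at 860 and 2895 CPM, had hepatocyte marker sums of 2001 and 1476 CPM, below the oil range of 2300 to 13794 CPM. Their neutrophil marker sums were 3249 and 1649 CPM, the first above the oil range of 225 to 1753 CPM. Monocyte markers summed to 1667 and 785 CPM in these mice, against 615 to 1477 CPM in oil mice, and sinusoidal endothelial markers to 2779 and 3880 CPM, against 931 to 3330 CPM in oil mice. Cholangiocyte markers summed to 16.1 and 10.7 CPM, against 0 to 10.2 CPM in oil mice, and dendritic cell markers to 115 and 59.7 CPM, against 53.7 to 80.2 CPM. Mouse 1 thus exceeded every oil mouse in neutrophil, monocyte, cholangiocyte and dendritic cell markers, and mouse 2 in endothelial and cholangiocyte markers. The part of these in the Mt2 level was not tested. The Mt2 call against oil did not pass without Trem1-deficient mouse 3 or without oil mouse 1, 3, 4 or 5 (edgeR adjusted p of 0.0641 to 0.0980), where its log2 fold change lay between 2.49 and 2.59. Genotype and treatment differ together in this comparison and cannot be told apart.

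The ratio of Mt2 counts to Mt1 counts within a library needs no scaling between libraries. It was 3.36, 4.67, 2.51, 2.75 and 2.96 in Trem1-deficient CCl4 mice 1 to 5, 3.30, 4.63, 4.16, 4.40 and 2.82 in wild-type CCl4 mice 1 to 5, and 0.794, 1.08, 0.603, 1.06 and 0.939 in wild-type oil mice 1 to 5. All 10 mice given CCl4 lay above all 5 oil mice, and the 2 genotypes overlapped after CCl4. Both wild-type groups also entered the contrast that chose the genes, so differences in this ratio are not independent of that choice. Its mean was 3.25 ± 0.854 in Trem1-deficient CCl4 mice, 3.86 ± 0.769 in wild-type CCl4 mice and 0.897 ± 0.201 in wild-type oil mice (SD, n = 5 each). Between the genotypes after CCl4 the mean log2 ratio differed by -0.26 ± 0.21 (SE, two-sided exact permutation p = 0.262, against a smallest possible p of 0.00794). Within the index series, with Trem1-deficient mice 3 to 5, it differed by -0.47 (exact permutation p = 0.0714). Wild-type CCl4 mouse 1, with Mt1 and Mt2 near the Trem1-deficient levels, had a ratio of 3.30, inside the range of both CCl4 groups.

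**Figure D2:**
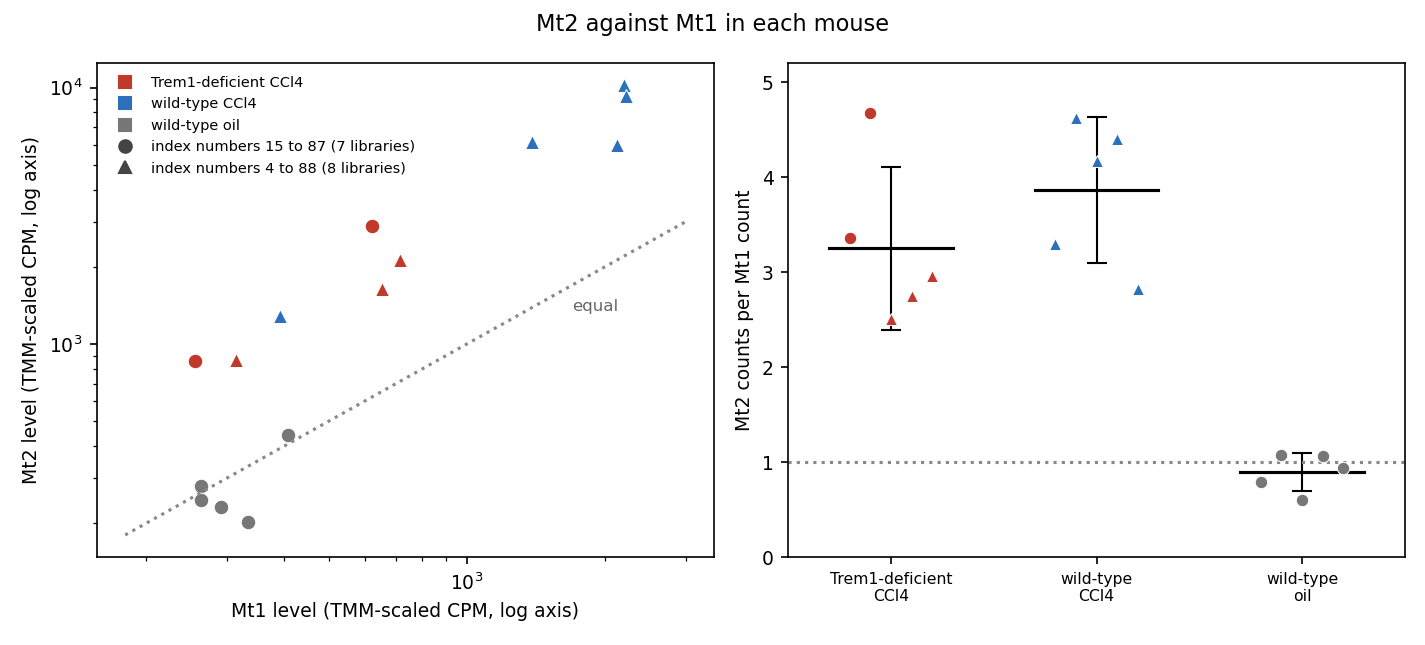
Left, Mt2 against Mt1 level in each of 15 mice (TMM-scaled CPM, both axes logarithmic, dotted line at equal levels); right, Mt2 counts per Mt1 count in each mouse with the mean and SD of 5 mice per group (dotted line at 1). The 10 mice given CCl4 lie at ratios of 2.51 to 4.67, and the 5 oil mice lie at 0.603 to 1.08.

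Across the 15 mice, Mt1 and Mt2 had a Pearson r of 0.92 on log2(CPM + 1), and their deviations from the group means had an r of 0.92, so that mice high in one were high in the other within groups as well. Values of a mouse share its library, depth and cell preparation, and the coefficients are descriptions. Deviations of Mt2 had an r of 0.07 with those of Slc30a1, -0.37 with Mtf1 and -0.35 with Slc39a14 over the same 15 mice. Mt2 deviations had an r of -0.58 with those of the Kupffer cell marker sum, 0.30 with the hepatocyte sum and 0.34 with the neutrophil sum. With the number of genes detected, which ranged from 9819 to 12142 in Trem1-deficient CCl4 mice, 7926 to 13267 in wild-type CCl4 mice and 8264 to 11817 in wild-type oil mice, the deviations had an r of -0.77 for Mt1 and -0.71 for Mt2. Wild-type CCl4 mouse 1, lowest of its group in both metallothioneins, had the most genes detected, the highest Kupffer cell sum of its group (22914 CPM) and the lowest hepatocyte sum of its group (13774 CPM). The part of these measures in the metallothionein differences was not tested.

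**Figure D3:**
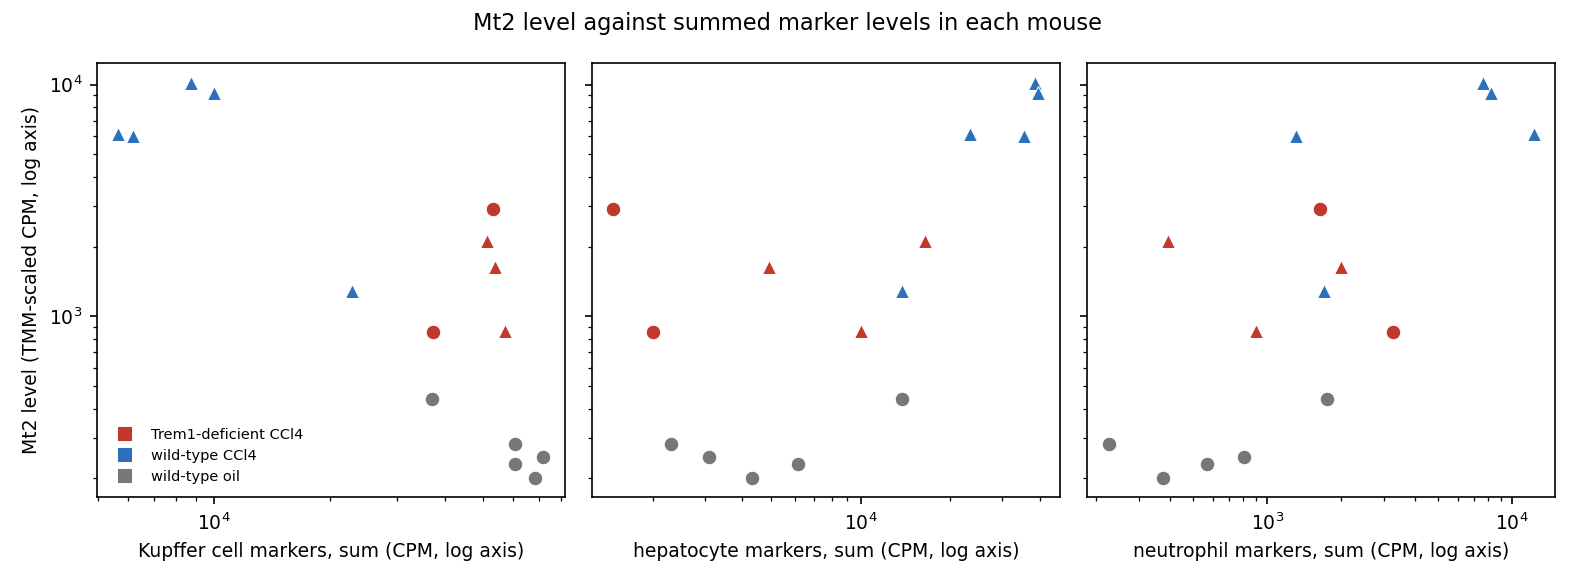
Mt2 level against the summed levels of Kupffer cell, hepatocyte and neutrophil markers in each of 15 mice (CPM, all axes logarithmic), with triangles and circles for the 2 series of index numbers. Trem1-deficient CCl4 mice combine Mt2 of 860 to 2895 CPM with Kupffer cell sums of 37155 to 57073 CPM, whereas wild-type CCl4 mice combine Mt2 of 1291 to 10197 CPM with sums of 5654 to 22914 CPM.

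Genes most like Mt2 over the 15 mice, among 7805 with a mean of 10 CPM or more, were Hspb1 (a small heat shock protein, r = 0.93), Il1r2 (the decoy receptor of interleukin-1, 0.91), Serpina3n (a serine protease inhibitor, 0.91), Ccl9 (a chemokine, 0.90), Wfdc21 (0.90) and Ctgf (a matricellular protein, 0.90). Within groups, their deviations had r values of 0.42 to 0.70 with those of Mt2. Hspb1 averaged 33.6 CPM in Trem1-deficient CCl4 mice, 102 CPM in wild-type CCl4 mice and 0.987 CPM in wild-type oil mice. For Mt1 the list was Ccl9 (0.91), Wfdc21 (0.88), Plin2 (a lipid droplet protein, 0.87), Clu (a secreted chaperone, 0.86), Nnmt (nicotinamide N-methyltransferase, 0.86) and Esd (esterase D, 0.86). Their deviations had r values of 0.59 to 0.80 with those of Mt1. Plin2 averaged 278 CPM in Trem1-deficient CCl4 mice, 432 CPM in wild-type CCl4 mice and 120 CPM in wild-type oil mice.

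Beyond the 5 genes, the metallothionein, SLC30 and SLC39 families with Mtf1 make 29 genes, of which 21 had enough counts to be tested. Mt3, the metallothionein of the nervous system, had 0 counts in all 15 libraries, and Mt4, that of stratified epithelia, had 1 count in 1 wild-type CCl4 library. Of the 16 tested besides the 5 genes, edgeR called 1 in wild-type CCl4 against oil mice (Slc39a7, higher), or 6.25%, beside 5.13% of all tested genes. It called 0 of the 16 in Trem1-deficient against wild-type CCl4 mice, beside 2.06% of all tested genes. In Trem1-deficient CCl4 against oil mice it also called 0, beside 0.233%. Both comparisons had 1 of the 16 at an unadjusted p under 0.05, and DESeq2 called 0 in both. At such shares, 0 calls among 16 genes say little about them. Median log2 fold changes of the 16 were 0.22, 0.10 and 0.49 in the comparisons in the order given, beside 0.06, -0.03 and 0.02 over all tested genes.

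Among the 18 tested zinc transporters, Slc39a7 (ZIP7, which releases zinc from the endoplasmic reticulum) had the highest mean tag level. It averaged 362 ± 66.5 CPM in Trem1-deficient CCl4 mice, 411 ± 195 CPM in wild-type CCl4 mice and 195 ± 39 CPM in wild-type oil mice (SD, n = 5 each). In wild-type CCl4 against oil mice it rose by 1.07 ± 0.32 on the log2 scale (edgeR adjusted p = 0.0492), in 5 of 5 mice above the oil mean. That call did not pass in 18 of 24 alternative settings, including 13 of the 15 that left out 1 mouse, with log2 fold changes of 0.63 to 1.25 over all 24. Trem1-deficient CCl4 mice differed by -0.18 ± 0.32 from wild-type CCl4 mice (edgeR adjusted p = 0.849) and by 0.89 ± 0.32 from oil mice (edgeR adjusted p = 0.650). Levels in Trem1-deficient CCl4 mice (270 to 426 CPM) did not overlap those in oil mice (149 to 254 CPM), as was so for 2.9% of all tested genes. Those in wild-type CCl4 mice (205 to 664 CPM) did overlap the oil levels. Gm20427 overlaps Slc39a7 on the same strand, and reads of that pair cannot be told apart.

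Of the exporters, 6 of 10 were tested. Both edgeR and DESeq2 called 0 of them in Trem1-deficient against wild-type CCl4 mice and in Trem1-deficient CCl4 against oil mice. In edgeR 0 had an unadjusted p under 0.05 there. Of the 5 other than Slc30a1, both tools called 0 in wild-type CCl4 against oil mice, with 1 at an unadjusted p under 0.05 in edgeR. Over all tested genes edgeR called 2.06%, 0.233% and 5.13% in these comparisons, so 0 calls among so few genes say little about the exporters. Slc30a4, a vesicular exporter, averaged 9.75 ± 14.5 CPM in Trem1-deficient CCl4 mice, 43.1 ± 50.5 CPM in wild-type CCl4 mice and 4.75 ± 5.37 CPM in wild-type oil mice (SD, n = 5 each). Slc30a10, known as a manganese exporter, averaged 6.44 ± 4.69 CPM in Trem1-deficient CCl4 mice, 12.7 ± 21.1 CPM in wild-type CCl4 mice and 3.20 ± 6.50 CPM in wild-type oil mice (SD, n = 5 each), with 0 counts in 3 libraries of each wild-type group. Of the importers, 12 of 14 were tested. Slc39a8 (ZIP8), a plasma membrane importer found in macrophages, averaged 13.2 ± 6.58 CPM in Trem1-deficient CCl4 mice, 30.9 ± 49.2 CPM in wild-type CCl4 mice and 11.6 ± 9.47 CPM in wild-type oil mice (SD, n = 5 each). Slc39a13 (ZIP13, of Golgi and vesicles) averaged 16.9 ± 9.95 CPM in Trem1-deficient CCl4 mice, 2.35 ± 2.49 CPM in wild-type CCl4 mice and 14.9 ± 11 CPM in wild-type oil mice (SD, n = 5 each), a log2 difference of 2.79 ± 1.23 between the genotypes after CCl4 (edgeR adjusted p = 0.263). These 4 genes were picked after their values were seen.

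**Figure D4:**
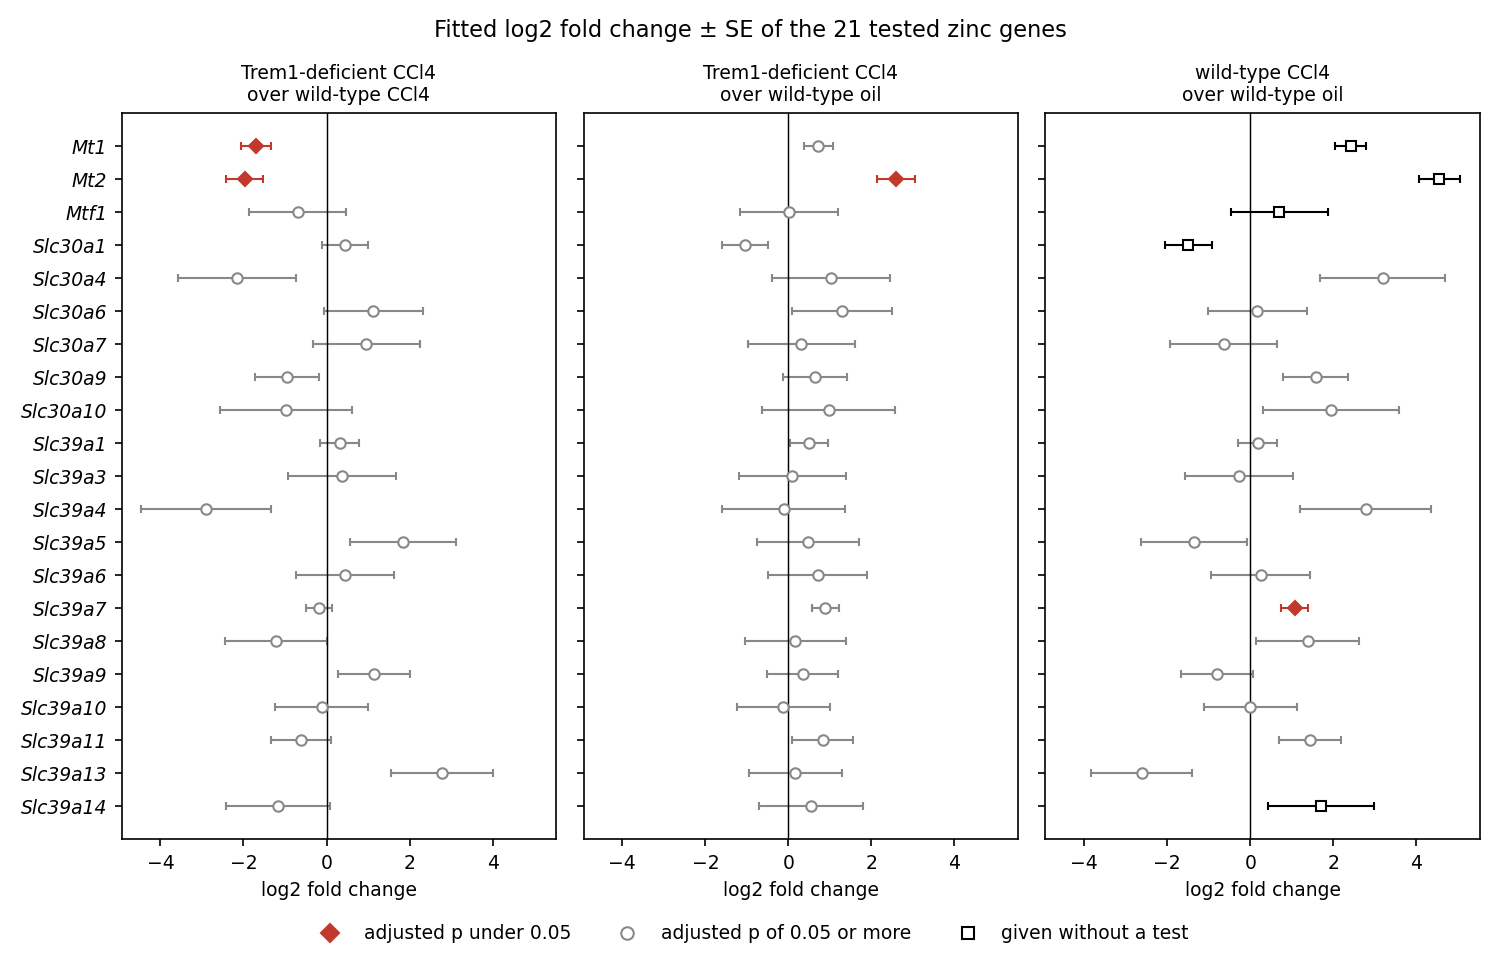
Fitted log2 fold change with its SE for each of the 21 tested metallothionein, Mtf1 and zinc transporter genes (rows) in the 3 comparisons (panels), with filled diamonds for an edgeR adjusted p under 0.05, circles for higher p and squares for the 5 chosen genes in the comparison that chose them. Mt1 and Mt2 stand left of 0 between the genotypes after CCl4 (-1.70 and -1.97), and Mt2 stands right of 0 against oil (2.58).

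Other genes listed as MTF1 targets in mouse work did not move as one. Gclc, the catalytic subunit of the first enzyme of glutathione synthesis, fell in Trem1-deficient against wild-type CCl4 mice by 4.45 ± 0.68 on the log2 scale (edgeR adjusted p = 0.00106). It averaged 31.0 ± 18.7 CPM in Trem1-deficient CCl4 mice, 676 ± 582 CPM in wild-type CCl4 mice and 24.3 ± 15.1 CPM in wild-type oil mice (SD, n = 5 each). Csrp1, a LIM domain protein of the actin cytoskeleton, rose in the same comparison by 1.90 ± 0.46 (edgeR adjusted p = 0.0263), at 381 ± 94.1 CPM in Trem1-deficient CCl4 mice and 102 ± 80.7 CPM in wild-type CCl4 mice (SD, n = 5 each). Ndrg1, which responds to metals and hypoxia, differed by -1.55 ± 0.63 (edgeR adjusted p = 0.224), and Selenow, listed as Sepw1, by 0.69 ± 0.89 (edgeR adjusted p = 0.782). In wild-type CCl4 against oil mice, Gclc rose by 4.78 ± 0.69 (edgeR adjusted p = 0.000195) and Ndrg1 by 2.20 ± 0.65 (edgeR adjusted p = 0.0448), and Csrp1 fell by 2.35 ± 0.47 (edgeR adjusted p = 0.00261). In Trem1-deficient CCl4 against oil mice the 4 genes differed by -0.45 to 0.66 on the log2 scale. There edgeR had 0 of them at an adjusted or at an unadjusted p under 0.05, beside 0.233% of all tested genes called, and DESeq2 called 0. Of the 4, edgeR called 2 between the genotypes after CCl4, beside 2.06% of all tested genes. It called 3 in wild-type CCl4 against oil mice, beside 5.13%.

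Lists for the other known inducers of metallothioneins were read in Trem1-deficient against wild-type CCl4 mice, where edgeR called 2.06% of all tested genes. DESeq2 called 669 genes there and edgeR 185, so counts by DESeq2 or at an unadjusted p are not to be read beside that share. Of 14 glucocorticoid response genes tested, edgeR called 2 (14.3%), both lower, and DESeq2 called 3. Errfi1, an inhibitor of EGF receptor signalling, fell by 3.10 ± 0.61 on the log2 scale (edgeR adjusted p = 0.00455). Hsd11b1, the enzyme that regenerates active glucocorticoid, fell by 3.93 ± 0.81 (edgeR adjusted p = 0.00605). Of 13 tested NRF2 response genes edgeR called 1 (7.69%) and DESeq2 3, and Slc7a11, the cystine importer, fell by 4.11 ± 1.01 (edgeR adjusted p = 0.0263). The NRF2 list leaves out Gclc, given above with the MTF1 targets and called lower here and higher in wild-type CCl4 against oil mice. Shares and medians of the list are without that gene. Of 14 tested interleukin-6 and STAT3 response genes edgeR called 0 (5 at an unadjusted p under 0.05) and DESeq2 2, and Saa3, an acute phase apolipoprotein, differed by -2.79 ± 0.85 (edgeR adjusted p = 0.0894). Medians of these 3 lists were -0.47, 0.08 and -0.53, beside -0.03 over all tested genes.

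In wild-type CCl4 against oil mice, where 5.13% of all tested genes were called, 2 of the 14 glucocorticoid response genes (14.3%) rose, Ddit4 (an inhibitor of mTORC1) by 1.79 ± 0.38 and Hsd11b1 by 3.26 ± 0.79 on the log2 scale (edgeR adjusted p = 0.00351 and 0.0110). Of the 13 NRF2 genes 3 (23.1%) rose, Srxn1 (sulfiredoxin) by 2.42 ± 0.38, Slc7a11 by 6.06 ± 1.14 and Txnrd1 (thioredoxin reductase) by 1.04 ± 0.31 (edgeR adjusted p = 0.000124, 0.00104 and 0.0486), and of the 14 interleukin-6 genes 1 (7.14%), Saa3, rose by 7.30 ± 1.12 (edgeR adjusted p = 0.000202). DESeq2 called 6, 4 and 7 genes of the 3 lists, and at an unadjusted p under 0.05 edgeR had 8, 5 and 10. These counts are not to be read beside 5.13%, as DESeq2 called 1097 genes in this comparison and edgeR 462. Fitted log2 fold changes were above 0 for 9 of the 14 glucocorticoid, 5 of the 13 NRF2 and 13 of the 14 interleukin-6 genes. Medians of the 3 lists were 0.78, -0.34 and 1.02, beside 0.06 over all tested genes. In Trem1-deficient CCl4 against oil mice, which use the same oil libraries, Ddit4 rose by 1.99 ± 0.38 (edgeR adjusted p = 0.0107) and Srxn1 by 1.77 ± 0.37 (edgeR adjusted p = 0.0223). There edgeR called 1 of 14 glucocorticoid, 1 of 13 NRF2 and 0 of 14 interleukin-6 genes, beside 0.233% of all tested genes. Medians of the 3 lists were 0.12, 0.34 and 0.63 in that comparison, beside 0.02 over all tested genes.

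Genes of copper and iron handling, the metals that share carriers or metallothionein binding with zinc, gave 1 call each between the genotypes after CCl4 in edgeR, or 8.33% of 12 tested genes each, beside 2.06% of all tested genes. DESeq2, which called 669 genes there against 185 in edgeR, called 1 copper gene and 3 iron genes. Of 12 tested copper genes, Cp (ceruloplasmin, the copper ferroxidase secreted by hepatocytes) fell by 1.68 ± 0.39 on the log2 scale (edgeR adjusted p = 0.0170). It averaged 246 ± 111 CPM in Trem1-deficient CCl4 mice, 788 ± 282 CPM in wild-type CCl4 mice and 119 ± 75.2 CPM in wild-type oil mice (SD, n = 5 each). Of 12 tested iron genes, Slc40a1 (ferroportin, the iron exporter of macrophages) rose by 1.91 ± 0.35 (edgeR adjusted p = 0.00155), at 476 ± 105 CPM in Trem1-deficient CCl4 mice and 127 ± 63.9 CPM in wild-type CCl4 mice (SD, n = 5 each). Wild-type oil mice were at 732 ± 116 CPM (SD, n = 5), and in wild-type CCl4 against oil mice Slc40a1 fell by 2.53 ± 0.35 (edgeR adjusted p = 2.81e-05) and Cp rose by 2.73 ± 0.41 (edgeR adjusted p = 7.21e-05). The part of the hepatocyte and Kupffer cell marker differences given above in these calls was not tested.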

How the data were processed

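RNA of Kupffer cells was sequenced as Lexogen QuantSeq 3′ tag libraries, per the labels' protocols. The deposited values are raw counts per gene, 1 column per mouse, and the 60 entries in the labels are 4 lanes of 15 libraries. Per the submitters' processing notes, Trimmomatic, STAR 2.5.1a, Partek 6.6 and mm10 were used, with roles, annotation and strand setting not given in those notes or labels. The 4 lines that name no gene (reads outside genes) were left out, so gene counts were 12.6% to 28.8% of all reads in the table. Counts of 24411 genes, or 812320 to 2593004 per mouse, entered edgeR 4.0.16 (R 4.3.3; filterByExpr by group, TMM, robust quasi-likelihood fit of 3 groups over all 15 mice, Benjamini-Hochberg over 9001 genes), checked on simulated counts. A count of 0 allows up to 3 counts, which covers counting error only.

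Levels are TMM-scaled CPM, and log2(CPM + 1) in correlations. The SE of an edgeR log2 fold change is its absolute value over the square root of the F statistic of the quasi-likelihood test. The ratio test was an exact permutation of mice with scipy 1.17.1. No pair of libraries within a group agreed within sampling noise (lowest chi-square per degree of freedom 10.8 over 30 pairs). Each mouse is 1 replicate, and p-values measure the spread between these preparations. The members, lists and tests were chosen with earlier results of these data known. Named genes are the 5 members, every metallothionein or zinc transporter gene called, up to 4 called genes per other list by smallest p, and the 6 genes most like Mt2 and Mt1 in each case. Outside this rule, Mt3, Mt4, Slc30a4, Slc30a10, Slc39a8, Slc39a13 and Selenow were named after their values were seen. DESeq2 1.42.0, other scalings and filters, fits of 2 groups, a replicate block, the index series and leaving out each mouse were alternatives.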

Additional observations from a re-analysis of the deposited data

Results flagged for a closer look

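Wild-type CCl4 mouse 1 lay far below the other 4 mice of its group for both metallothioneins. Its Mt1 level was 391.7 CPM (598 counts), and the gap to the next mouse on the log2 scale was 0.729 of the range of the group, above Dixon's critical value of 0.71 for 5 samples. Its Mt2 level was 1291 CPM (1971 counts), with a gap of 0.743 of the range. These came from 21 groups of values examined, and chance flags about 1 in 20. The same library had 1912946 gene counts and 13267 detected genes, both the highest of its group. Without this mouse, Mt1 differed by -1.95 and Mt2 by -2.23 between Trem1-deficient and wild-type CCl4 mice on the log2 scale, and 508 genes were called in that comparison in place of 185.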

How the results depend on the processing

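Numbers of genes called in wild-type CCl4 against oil mice, Trem1-deficient against wild-type CCl4 mice and Trem1-deficient CCl4 against oil mice were 462, 185 and 21. They came to 1097, 669 and 77 with DESeq2, 813, 563 and 73 with no filter on low counts, and 37, 77 and 11 with the index series as a term. With library totals in place of TMM the middle count was 310, within the index series it was 57, and without the 3 libraries with the fewest detected genes (chosen after seeing the data) the last 2 were 383 and 46. Leaving out 1 mouse gave 302 to 759, 88 to 508 and 12 to 31 genes.

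Zinc genes called were 1 of 16 in the first comparison, where the 5 chosen genes were not counted, and 2 and 1 of 21 in the others. The first count was 0 with library totals, in a fit of the 2 groups alone, with the replicate block, with the index series as a term and without the 3 libraries. The last 2 were 1 and 0 with no filter and 0 and 0 with the index series as a term, and 0 between the genotypes within the index series or without the 3 libraries. Leaving out 1 mouse gave 0 to 1, 1 to 2 and 0 to 1. The added count of zinc genes was also chosen after seeing the data. With no filter, Mt2 differed by -1.98 (edgeR adjusted p = 0.0614) and 2.60 (edgeR adjusted p = 0.0703) in the last 2 comparisons. Over all alternatives Mt1 kept its sign, at 2.06 to 2.67, -1.95 to -1.37 and 0.49 to 0.89, as did Mt2, at 4.33 to 4.84, -2.23 to -1.70 and 2.29 to 2.81, and Slc30a1, at -2.63 to -0.97, 0.12 to 0.82 and -1.82 to -0.56.

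Mice with the same number in different groups did not deviate together (correlations of -0.058 to 0.041 over 9001 genes), so the replicate block is no pairing by design. With the block, 365, 158 and 21 genes were called, Mtf1 turned to -0.14 and 0.53 in the first 2 comparisons and Slc39a14 to -0.49 in the last. Mtf1 ranged with 1 mouse left out from -0.89 to 1.20, -0.998 to 0.90 and -0.30 to 0.52, and was -0.30 in the last comparison without the 3 libraries. Slc39a14 turned to -1.22 in the first and -1.76 in the last with the index series as a term and to -1.76 within it, and ranged from -0.18 to 1.15 in the last with 1 mouse left out. Slc39a7 between the genotypes turned to 0.12 with library totals and ranged from -0.35 to 0.074 with 1 mouse left out. Causes were not tested. The Mt2 to Mt1 ratio difference kept its sign and did not pass in 12 of 12 alternatives (-0.47 to -0.18 in log2). With the spread between these mice, Mtf1 and Slc39a14, with 0 to 195 counts, cannot show changes of the size of their standard errors.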
